A study of Mus musculus with 8 samples.

Results

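Immediate early genes were followed by transient transcriptome sequencing (TT-seq) in mouse embryonic stem cells in which the chromatin architectural protein CTCF could be degraded on demand. The 10 genes named for the set were Fos, Fosb, Jun, Junb, Egr1, Ier2, Klf6, Atf3, Dusp1 and Myc, taken by gene symbol. Of these, 8 were rows of the table of 16940 genes, and all 8 passed the filter for testing, a mean of at least 10 normalized reads over the 8 libraries. Fosb and Egr1 are not analysed here. Myc had a mean below 10 in the untreated group (9.38) and passed through the other 3 groups.

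TT-seq captures only RNA made during a short pulse of 4-thiouridine, here 15 min at 400 µM. All cells were of an E14 line carrying CTCF fused to an auxin-inducible degron (AID), a tag that leads to destruction of the protein when the auxin indole-3-acetic acid (IAA) is added. Every group was grown without serum, with leukemia inhibitory factor, the GSK3 inhibitor CHIR99021 and 1 µM PD0325901, an inhibitor of the MEK kinases that lie upstream of many of these genes, so that no group is without that inhibitor. The 4 groups had 2 libraries each. They were the control overexpression line without IAA, called untreated below, the same line after 12 h of IAA, called the IAA control below, a line overexpressing wild-type CTCF after 12 h of IAA, and a line overexpressing a mutated CTCF after 12 h of IAA. The labels name neither the mutation nor the control construct, and do not say how many clones stand behind a line or whether the 2 replicates came from separate cultures, so p-values measure the spread between libraries, which may be technical. Each rescue line was sampled with IAA only, so a difference between lines can also come from the lines themselves.

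Immediate early genes are transcribed within minutes of a growth factor or stress signal, without new protein synthesis, and their RNAs are usually short-lived. Many encode transcription factors. Fos, Jun and Junb form the AP-1 dimers, Atf3 is a related stress-responsive bZIP factor, and Klf6, Myc and Ier2 are other nuclear regulators, while Dusp1 is a phosphatase that switches off MAP kinases. A short pulse reads the making of these RNAs more directly than total RNA does, since a transcript with fast turnover is a small part of the standing pool.

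The values are the authors' deposited normalized reads. In every library 100% of values were whole multiples of a single step of 0.836 to 1.19 normalized reads, within a tolerance of 0.01 steps. Taking a step as 1 read, which the deposited values do not state and which could not be checked independently in the library whose step, 0.989, is near 1, the libraries held 15671114 to 21561141 reads. Read numbers and counting errors below rest on that reading. All 8 stem cell markers searched were listed, 7 of them with means from 1212 (Pou5f1) to 17349 (Tfcp2l1), and 0 of 7 markers of feeder fibroblasts were listed. Several marker lists moved with IAA in the control line, where 37.7% of all tested genes were called. The part of such cells in the results below was not tested. Of the stem cell markers 2 rose and 3 fell, with log2 fold changes of -2.24 to 0.47, and their sum went from between 49219 and 49945 normalized reads to between 51888 and 53249. Primitive endoderm markers were low, with 4 of 6 listed at means of 15.5 to 130. Of these 2 rose and 1 fell (-0.59 to 1.78), and their sum went from between 195 and 228 to between 269 and 331. The sum of 2 listed neural markers of 3 went from between 156 and 159 to between 221 and 223, with 1 tested and higher. That of 3 listed epiblast or mesoderm markers of 6 went from between 130 and 134 to between 92.4 and 116, with 1 of 2 tested lower. Between lines, 5 stem cell markers rose with wild-type CTCF against the IAA control and 6 with mutated CTCF, and 0 fell in either. Of all tested genes 31.6% and 34.3% were called in these comparisons, and 34.7% between the mutated and wild-type lines. Both tested epiblast or mesoderm markers were lower in the mutated than in the wild-type line (-0.81 and -0.73), with sums between 81.5 and 104 against between 157 and 164. In bulk libraries, fewer cells making an RNA and less of it per cell cannot be told apart.

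Promoters of 6 members were matched by symbol in RefSeq (GRCm38.p6) as 250 bases before to 50 bases after a listed start; Ier2 and Myc had no entry. The 4 printed here are those that hold the letters TGACG on either strand, the core of the cyclic-AMP response element (CRE) that CREB and ATF factors recognise. They include 3 members that changed when IAA was added and Dusp1, which did not pass the test there. Capitals mark TGACG, read as CGTCA on the other strand, and the full element TGACGTCA. The windows lie at chr12:85473640-85473939 on the plus strand for Fos, and on the minus strand at chr1:191183284-191183583 for Atf3, chr8:84978699-84978998 for Junb and chr17:26508423-26508722 for Dusp1. All run 5′ to 3′ along the gene.
Fos: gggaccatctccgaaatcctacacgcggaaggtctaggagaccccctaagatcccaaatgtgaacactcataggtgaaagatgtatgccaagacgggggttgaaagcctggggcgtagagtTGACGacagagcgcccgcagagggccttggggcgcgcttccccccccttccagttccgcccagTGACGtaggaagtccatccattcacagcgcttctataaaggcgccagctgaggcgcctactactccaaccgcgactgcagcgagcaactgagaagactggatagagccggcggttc
Atf3: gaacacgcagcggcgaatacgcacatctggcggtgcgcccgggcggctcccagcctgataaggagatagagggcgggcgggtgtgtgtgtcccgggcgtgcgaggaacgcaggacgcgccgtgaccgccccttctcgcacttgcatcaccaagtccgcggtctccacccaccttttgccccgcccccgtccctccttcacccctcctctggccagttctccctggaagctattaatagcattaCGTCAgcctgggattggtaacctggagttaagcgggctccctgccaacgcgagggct
Junb: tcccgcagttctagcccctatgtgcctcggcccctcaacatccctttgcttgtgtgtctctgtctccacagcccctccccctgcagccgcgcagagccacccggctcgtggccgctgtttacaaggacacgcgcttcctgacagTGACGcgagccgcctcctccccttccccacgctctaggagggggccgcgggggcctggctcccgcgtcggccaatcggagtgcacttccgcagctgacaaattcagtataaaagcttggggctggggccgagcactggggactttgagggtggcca
Dusp1: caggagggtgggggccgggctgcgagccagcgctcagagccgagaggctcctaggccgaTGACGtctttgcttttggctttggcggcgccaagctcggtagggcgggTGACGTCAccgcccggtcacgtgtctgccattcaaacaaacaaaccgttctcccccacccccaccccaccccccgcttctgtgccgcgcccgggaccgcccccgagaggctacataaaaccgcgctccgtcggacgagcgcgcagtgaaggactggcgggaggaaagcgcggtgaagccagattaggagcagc

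The Fos window held TGACG at 2 places, starting 129 and 66 bases before the start, and the Atf3 window held it once on the opposite strand, starting 7 bases before the start. Junb had 1 match, 106 bases before the start. Dusp1 was the only member with the full TGACGTCA, a palindrome that begins 143 bases before the start and contains the core on both strands. Among all 32851 promoters of the same length, 20.8% held TGACG and 1.79% held TGACGTCA. The letters TGANTCA, which AP-1 dimers recognise, were in 0 of the 6 members' windows and in 7.81% of all windows, and the CArG box, which serum response factor recognises, was in 0 of 6 and in 1.63% of all. The GC box GGGCGG was in 5 of 6 windows against 35.7% of all. TATAAA was in 2 of 6 (Fos and Junb) against 13.6% and the E-box CACGTG in 2 of 6 (Klf6 and Dusp1) against 7.15%. In Fos TATAAA began 33 bases before the listed start, and in Junb at the listed start itself. The core of the CTCF motif was in 3 of 6 (Jun, Junb and Fos) against 24.0%. All letters were searched on both strands, and a match is a description of the sequence only. Variants of these letters and sequence outside the windows were not searched, so a count of 0 does not cover them.

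Levels of nascent RNA differed widely among the members. Per kb of exon, as annotated in GENCODE M21, the mean over the 8 libraries was 263 normalized reads for Klf6 and 129 for Ier2. Dusp1 had 50.5 and Atf3 47.1 normalized reads per kb of exon, followed by Myc (10.8), Fos (9.04), Junb (7.46) and Jun (7.03). The counted feature is not stated. Per kb of the whole annotated gene Klf6 (129) and Ier2 (129) were level, and Dusp1 (2.96) and Atf3 (2.12), whose longest models reach far upstream, ranked below the other 6. The AP-1 subunits and Myc were therefore at the low end on exon length, with 6.69 to 43.9 normalized reads in single libraries, and counting error weighs most on them.

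**Figure D1:**
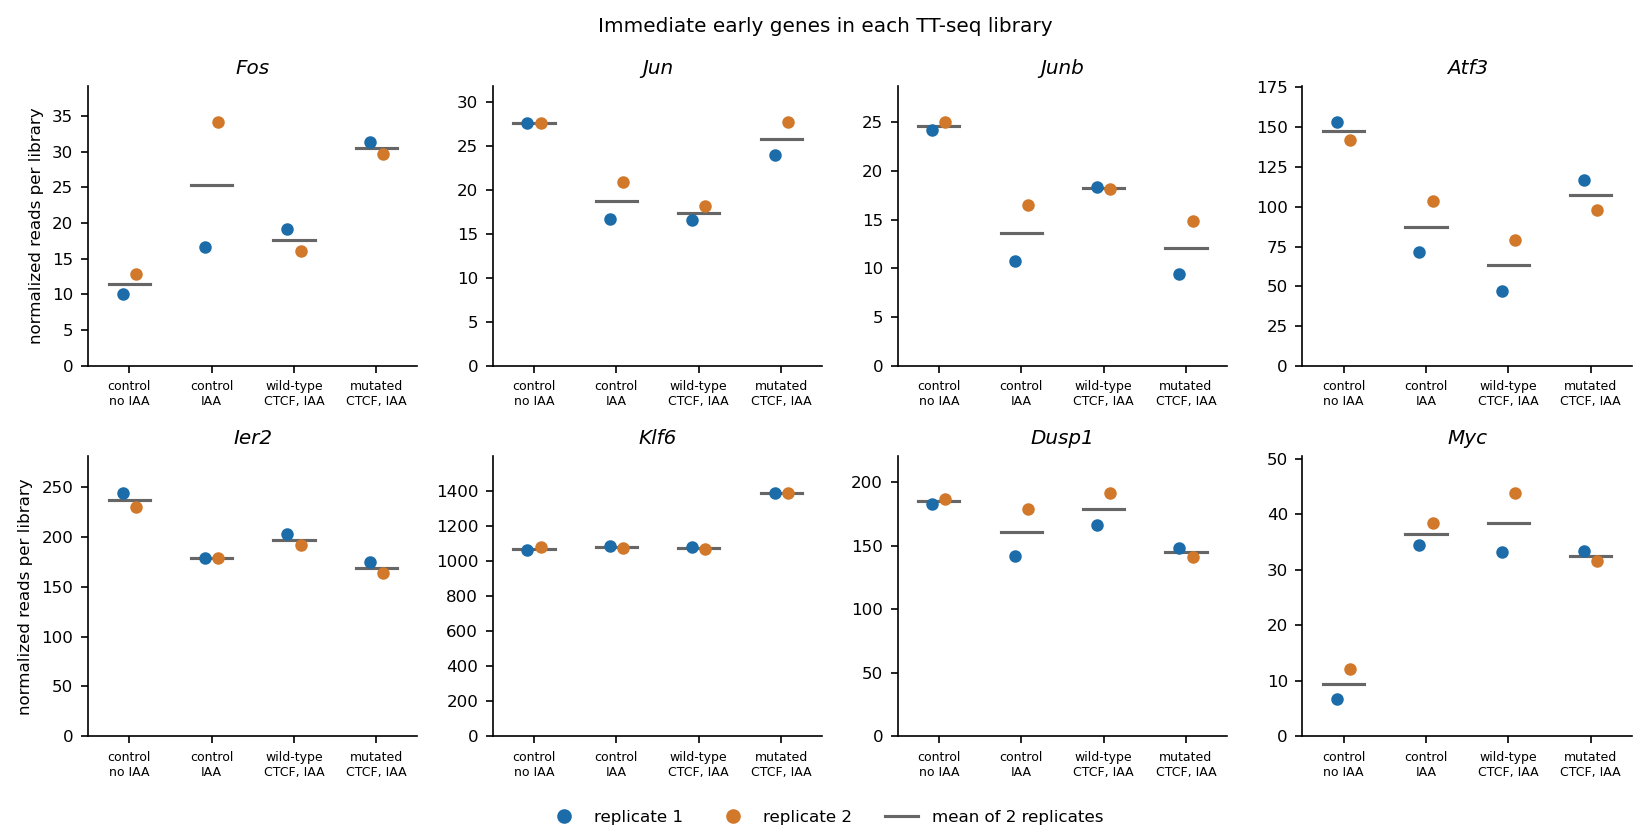
Normalized reads of the 8 listed immediate early genes in each of the 8 TT-seq libraries, with 1 panel per gene and its own vertical axis from 0; points are libraries and bars are the mean of the 2 libraries of a group. Myc is low in both untreated libraries (6.69 and 12.1), Klf6 is high in both libraries of the mutated line (1385 and 1388), and Fos differs between the 2 IAA control libraries (16.7 and 34.1).

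The control line was compared with and without 12 h of IAA, the treatment meant to degrade CTCF. No group had IAA without the degron, so an effect of IAA itself and one of the loss of CTCF cannot be told apart. Myc and Fos rose, and Atf3, Junb and Ier2 fell. These were 5 of the 8 members, against 37.7% of the 15818 genes tested; genes called higher were 19.4% of all tested and genes called lower 18.4%. That is 2 members higher and 3 lower, by limma on log2(value + 1) with Benjamini-Hochberg adjustment over all tested genes at 0.05. The members' median log2 fold change was -0.31 beside -0.0017 over all genes. With libraries rescaled to the same total, the median over all genes moved to -0.053 and the share of calls that were higher from 51.3% to 38.5%, and the 5 members kept their directions.

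Myc, a growth-promoting transcription factor of the basic helix-loop-helix family (chr15:61985391-61990374, plus strand, mm10), had the largest change of the members. Its normalized reads were 6.69 and 12.1 in the untreated libraries, 34.5 and 38.5 in the IAA control, 33.2 and 43.9 with wild-type CTCF, and 33.4 and 31.6 with mutated CTCF. Both untreated libraries lay below all 6 libraries with IAA, where the wild-type line overlapped both other groups and the mutated line lay just below the IAA control. These values rest on 8 and 14 reads in the untreated libraries and on 29 to 41 in the others. With IAA the control line was higher by 1.90 on the log2 scale (SE 0.29, limma adjusted p = 7.8e-07), and the wild-type and mutated lines were higher than untreated cells by 1.97 (adjusted p = 4.0e-07) and 1.74 (adjusted p = 4.1e-06). Neither CTCF line passed the test against the IAA control (wild-type 0.065, SE 0.29, adjusted p = 0.89; mutated -0.16, SE 0.29, adjusted p = 0.71). The 3 groups with IAA thus had means of 32.5 to 38.5 that were not separated, and only the untreated group, at 9.38, stood apart by the test. All 3 calls against untreated cells held under every alternative run in which Myc was tested.

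Fos, the AP-1 subunit that dimerises only with partners such as Jun (chr12:85473890-85477273, plus strand), also rose. Its normalized reads were 10.03 and 12.9 in untreated libraries, 16.7 and 34.1 in the IAA control, 19.2 and 16.0 with wild-type CTCF and 31.3 and 29.7 with mutated CTCF. The untreated libraries were the lowest pair, both libraries of the mutated line were high, and the IAA control spanned most of that range. The change with IAA was 1.01 (SE 0.32, limma adjusted p = 0.012), and it lost the call without the second IAA control library (0.51, adjusted p = 0.33) or without the first untreated library (0.84, adjusted p = 0.12), and without the mean-variance trend (adjusted p = 0.075). The mutated line was higher than untreated cells by 1.35 (adjusted p = 8.8e-04), a call that held without any single library, and its difference from the wild-type line, 0.76 (SE 0.32), missed the threshold (adjusted p = 0.063). That difference passed at a pseudocount of 10 (adjusted p = 0.043), with only the 2 groups in the fit (adjusted p = 0.042) and without the first IAA control library (adjusted p = 0.044). In the order of Fos levels, mutated line, control with IAA, wild-type line and untreated, no neighbours differed by the test.

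Junb, an AP-1 subunit that pairs with Fos proteins (chr8:84974484-84978718, minus strand), moved opposite to Fos. It had 24.24 and 24.999 normalized reads in untreated libraries, 10.7 and 16.5 in the IAA control, 18.4 and 18.2 with wild-type CTCF and 9.40 and 14.8 with mutated CTCF. Both untreated libraries were the highest, and the wild-type line lay between them and the other groups. Junb fell by 0.84 on the log2 scale with IAA (SE 0.34, limma adjusted p = 0.046) in the control line. In the mutated line with IAA it was lower than in untreated cells of the control line by 0.997 (adjusted p = 0.017). The call in the control line was near the threshold and was lost without either untreated library (adjusted p = 0.14 and 0.17), without the first IAA control library (adjusted p = 0.31), without the filter (adjusted p = 0.051) and without the trend (adjusted p = 0.064). The call in the mutated line was lost without either untreated library (adjusted p = 0.083 and 0.093) or without the first mutated library (adjusted p = 0.18). The wild-type line did not pass against untreated cells (-0.41, SE 0.34, adjusted p = 0.34). The annotated gene overlaps Prdx2 on the opposite strand by 351 bases, and the strand setting of the counting is not stated.

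Jun, the central AP-1 subunit (chr4:95049034-95052222, minus strand, a gene without introns), passed in 0 of the 6 comparisons. It had 27.6 normalized reads in each untreated library, 16.7 and 20.9 in the IAA control, 16.6 and 18.2 with wild-type CTCF, and 24.0 and 27.7 with mutated CTCF. The untreated and mutated groups overlapped near the top, and the other 4 libraries were lower. The change with IAA was -0.54 (SE 0.29, limma adjusted p = 0.14), and the wild-type line lay 0.64 below untreated cells (log2 fold change -0.64, adjusted p = 0.071). The latter passed when values were rescaled by median-of-ratios factors (adjusted p = 0.047) or to the same total (adjusted p = 0.039), and without the mean-variance trend Jun passed with IAA (adjusted p = 0.030), in the wild-type line against untreated cells (adjusted p = 0.017) and between the mutated and wild-type lines (adjusted p = 0.033). The antisense gene Junos shares 689 bases with Jun on the opposite strand, and it passed in none of the comparisons either.

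Atf3, which represses or activates stress-response genes as a dimer (chr1:191170296-191218039, minus strand), passed in every comparison except that of the mutated line with the IAA control. Its normalized reads were 153 and 142 in untreated libraries, 71.5 and 103 in the IAA control, 47.2 and 79.2 with wild-type CTCF and 117 and 97.9 with mutated CTCF. Untreated libraries were the highest and did not overlap any other group, while the wild-type line held the lowest library and overlapped the IAA control. Atf3 fell with IAA by 0.77 on the log2 scale (SE 0.18, limma adjusted p = 8.0e-04). In the wild-type line Atf3 was lower than in the IAA control by 0.48 (SE 0.18, adjusted p = 0.040), and lower than in untreated cells by 1.26 (adjusted p = 4.5e-07). The mutated line was above the wild-type line by 0.80 (SE 0.18, adjusted p = 6.8e-04) and below untreated cells by 0.46 (adjusted p = 0.045).

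Of these Atf3 calls, the one between the wild-type line and untreated cells held without each library in turn. The fall with IAA in the control line was lost without the first IAA control library (-0.51, adjusted p = 0.073), and without the trend (adjusted p = 0.10). The fall in the wild-type line against the IAA control was lost without the first wild-type library (-0.12, adjusted p = 0.68), without the second IAA control library (-0.22, adjusted p = 0.50) and without either untreated library (adjusted p = 0.083 and 0.082). It was also lost with only the 2 groups in the fit (adjusted p = 0.090) and without the trend (adjusted p = 0.28). The difference between the mutated and wild-type lines was lost without the first wild-type library (0.43, adjusted p = 0.064) and without the trend (adjusted p = 0.11). The fall in the mutated line against untreated cells was lost without either untreated library (adjusted p = 0.26 and 0.14), without the second mutated library (adjusted p = 0.26) and without the trend (adjusted p = 0.29).

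Ier2, a small nuclear protein of the early response (chr8:84661331-84662852, minus strand, 1 exon), was lower in every group with IAA than in untreated cells. Its normalized reads were 244 and 230 in untreated libraries, 179 and 179 in the IAA control, 203 and 191 with wild-type CTCF, and 174 and 164 with mutated CTCF. The 4 groups did not overlap, in the order untreated, wild-type line, control with IAA, mutated line, and only the step from untreated to the wild-type line passed the test between neighbours. The change with IAA in the control line was -0.40 (SE 0.11, limma adjusted p = 0.0031). Against untreated cells of the control line, the mutated line with IAA differed by -0.48 (adjusted p = 4.5e-04) and the wild-type line with IAA by -0.26 (adjusted p = 0.047). Without the first untreated library the change with IAA in the control line was -0.36 and lost the call. The difference of the wild-type line lost it without either untreated or either wild-type library (-0.31 to -0.22). It also lost the call at a pseudocount of 10 (limma adjusted p = 0.0504). That of the mutated line ranged from -0.53 to -0.44 with single libraries of the 2 groups left out.

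Klf6, a zinc-finger transcription factor (chr13:5861482-5870394, plus strand), was the most precisely measured member. Its normalized reads were 1061 and 1079 in untreated libraries, 1088 and 1076 in the IAA control, 1078 and 1070 with wild-type CTCF, and 1385 and 1388 with mutated CTCF. The first 3 groups overlapped, and both libraries of the mutated line stood above them. The change with IAA was 0.016 (SE 0.053, limma adjusted p = 0.85). The mutated line was higher than the IAA control by 0.36 (SE 0.053, adjusted p = 9.3e-07), than the wild-type line by 0.37 (adjusted p = 5.2e-07) and than untreated cells by 0.37 (adjusted p = 2.8e-07). These 3 differences passed in all 17 alternatives run, with adjusted p no higher than 0.0067.

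Dusp1, the phosphatase (chr17:26505590-26562128, minus strand), had the narrowest range of group means among the members, 0.35 on the log2 scale. Its normalized reads were 183 and 187 in untreated libraries, 142 and 179 in the IAA control, 166 and 191 with wild-type CTCF, and 148 and 141 with mutated CTCF. The mutated line was the lowest group on average but overlapped the IAA control. Dusp1 did not pass with IAA in the control line (-0.21, SE 0.12, limma adjusted p = 0.18). Without the second IAA control library the change was -0.38 (adjusted p = 0.043) and without the first it was -0.045 (adjusted p = 0.85). Between the mutated line and untreated cells it fell by 0.35 (SE 0.12, adjusted p = 0.023), a call lost without either untreated library (adjusted p = 0.10 and 0.13), without the second mutated library (adjusted p = 0.11) and without the trend (adjusted p = 0.098). Between the mutated and wild-type lines the difference was -0.30 (adjusted p = 0.059), and it passed under both rescalings (adjusted p = 0.048 and 0.046) and with the replicate number as a block (adjusted p = 0.047). It also passed without either IAA control library (adjusted p = 0.045 and 0.048) or the first wild-type library (-0.40, adjusted p = 0.028), and was -0.20 (adjusted p = 0.36) without the second wild-type library. Its longest model overlaps Ergic1 on the opposite strand by 640 bases.

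The lines overexpressing CTCF were then set against the control line, all with IAA. With wild-type CTCF, 1 of 8 members was called, Atf3, which fell, against 31.6% of all genes tested; the members' median log2 fold change was 0.027 beside 0.057 over all genes. With mutated CTCF, 1 of 8 was called, Klf6, which rose, against 34.3%, with a median of 0.12 beside 0.055. Mutated against wild-type CTCF called 2 of 8, Klf6 and Atf3, both higher with the mutated protein, against 34.7%, with a median of 0.075 beside -0.0087. Of the other 4 members called with IAA, none passed in either line against the IAA control. For Myc and Ier2 the wild-type line gave 0.065 (SE 0.29) and 0.14 (SE 0.11). For Fos it gave -0.42 (SE 0.32, limma adjusted p = 0.34) and for Junb 0.43 (SE 0.34, adjusted p = 0.35). These values share the IAA control libraries with the change with IAA, and for Fos the value was 0.071 without the second IAA control library. The Junb value was 0.14 without the first IAA control library and 0.72 without the second.

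Against untreated cells, the wild-type line with IAA called 3 of 8 members, Myc higher and Atf3 and Ier2 lower, where 43.2% of all genes were called. The mutated line with IAA called 7 of 8 against 37.8% (24.0% of all genes higher and 13.7% lower). In the same comparisons with untreated cells, 5 of 8 stem cell markers were higher and 1 lower in the wild-type line, and 6 were higher and 2 lower in the mutated line. Of 4 primitive endoderm markers, 1 was higher and 1 lower in the wild-type line, and 2 were higher and 1 lower in the mutated line. Their part in the members' differences was not tested. In the mutated line against untreated cells, Klf6, Fos and Myc were higher and Dusp1, Atf3, Junb and Ier2 lower. Jun stood at -0.093 there (limma adjusted p = 0.83). Of all genes called in that comparison 63.6% were higher, or 52.1% with median-of-ratios factors and 43.1% with libraries rescaled to the same total. The 3 comparisons with untreated cells share those 2 libraries, and the 3 with the IAA control share theirs, so their results are not independent.

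**Figure D2:**
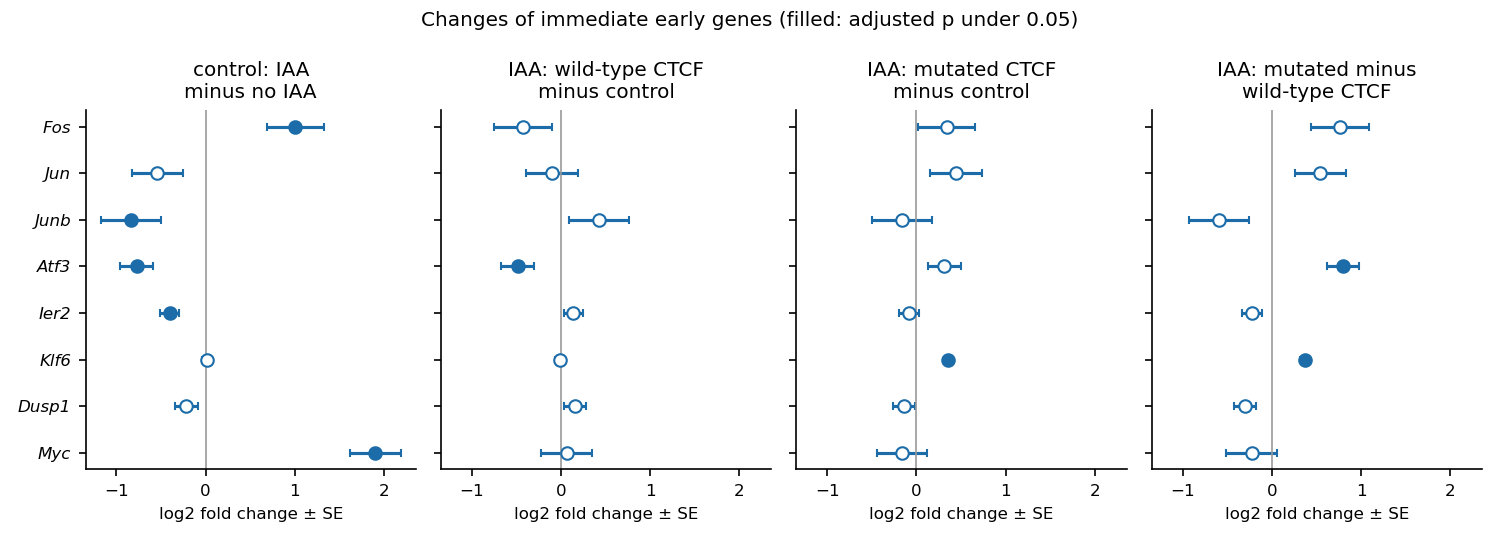
Log2 fold changes of the 8 members in the comparisons named above each panel, from limma on log2(normalized reads + 1); bars are ± 1 SE and filled points passed an adjusted p of 0.05. Myc lies far to the right with IAA (1.90), Atf3, Junb and Ier2 lie to the left, and Klf6 is displaced where the mutated line is compared (0.36 and 0.37).

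Replicate spread was read because RNAs with fast turnover follow short-lived signals. The absolute log2 difference between the 2 libraries of a group had a median over the 8 members of 0.064 in untreated cells, 0.32 in the IAA control, 0.16 in the wild-type line and 0.083 in the mutated line. Over all tested genes the medians were 0.084, 0.094, 0.10 and 0.093. Over all tested genes the difference was larger at lower levels. Genes at a mean of 20 to 40 had a median difference of 0.26. It was 0.14 at 80 to 160 and 0.079 at 320 to 640. The part of level in the members' spread was not tested. Divided by the difference that counting error alone gives (1 SE), the members exceeded 2 in 3 of 32 gene and group pairs. In untreated cells and the IAA control the members' median ratio was 0.54 and 0.81, beside 0.81 and 0.76 over all tested genes. For the wild-type and mutated lines it was 0.54 and 0.45, beside 0.87 and 0.81.

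The 3 pairs above 2 were Fos and Atf3 in the IAA control and Atf3 in the wild-type line. Fos differed there by 0.99 on the log2 scale, 2.19 times its counting error, and Atf3 by 0.53 (2.22 times) and 0.73 (2.89 times). Over all tested genes 7.79% exceeded 2 in the IAA control and 13.5% in the wild-type line. The share was 12.0% in untreated cells and 10.1% in the mutated line. In the IAA control the second library was the higher for 7 of 8 members, Klf6 being the exception, by a median of 0.32, where it was higher for 59.9% of all tested genes by a median of 0.026. The 35 other early response genes listed did not share this in that group, with 21 higher and a median of 0.022. In the wild-type line the second library was the higher for 27 of those 35, by a median of 0.16. It was higher there for 68.2% of all tested genes, by a median of 0.050. Klf6 had the smallest spread, 0.0027 to 0.025, and Atf3 the widest median, 0.39.

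**Figure D3:**
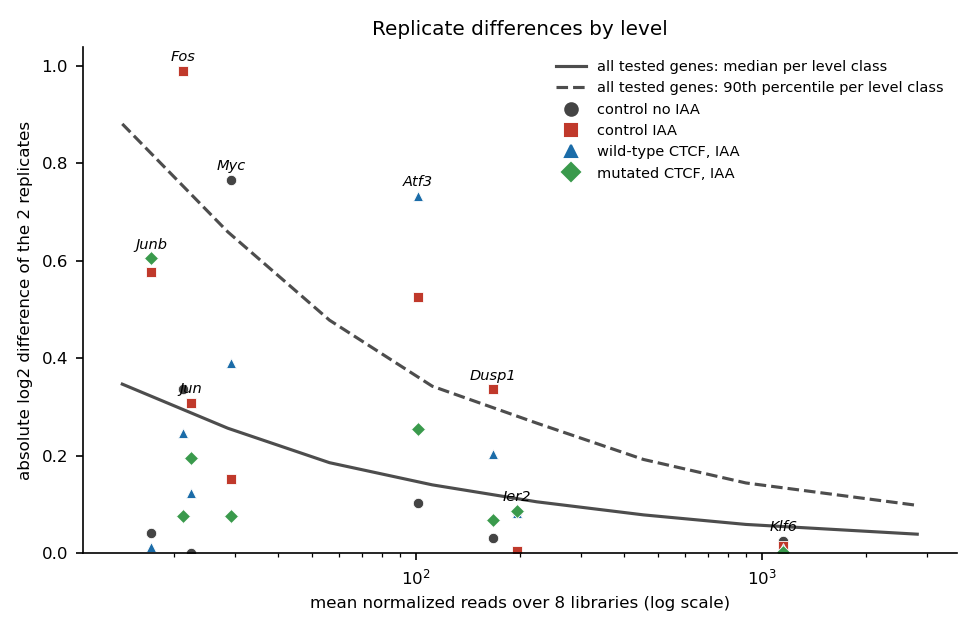
Absolute log2 difference between the 2 libraries of each group against the mean level in normalized reads (log axis) for the 8 members, with lines for the median and the 90th percentile of all tested genes by level. Fos in the IAA control (0.99) and Atf3 in the wild-type line (0.73) lie above most genes of their level, and Klf6 lies below.

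Other early response genes were read as a list of 44, of which 35 were in the table and tested. With IAA in the control line 3 rose and 16 fell, against 19.4% and 18.4% of all tested genes, with a median of -0.28 beside -0.0017. With median-of-ratios factors 3 rose and 16 fell, and at the same total 3 and 17. The number lower ranged from 9 to 17 when single libraries were left out, with 9 without the second untreated library and 10 without the second IAA control library. Among those that fell were Dusp6, a phosphatase for ERK (log2 fold change -1.10, SE 0.17, limma adjusted p = 1.9e-06), and Btg2, an antiproliferative gene (-0.89, adjusted p = 2.7e-10). Arc (-0.88, adjusted p = 9.0e-05) and Jund, an AP-1 subunit (-0.79, adjusted p = 0.0036), fell as well. Ccn2, a matricellular growth factor (0.88, adjusted p = 2.1e-05), and Nfkbia, an inhibitor of NF-kappaB (0.54, adjusted p = 1.9e-06), rose.

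**Figure D4:**
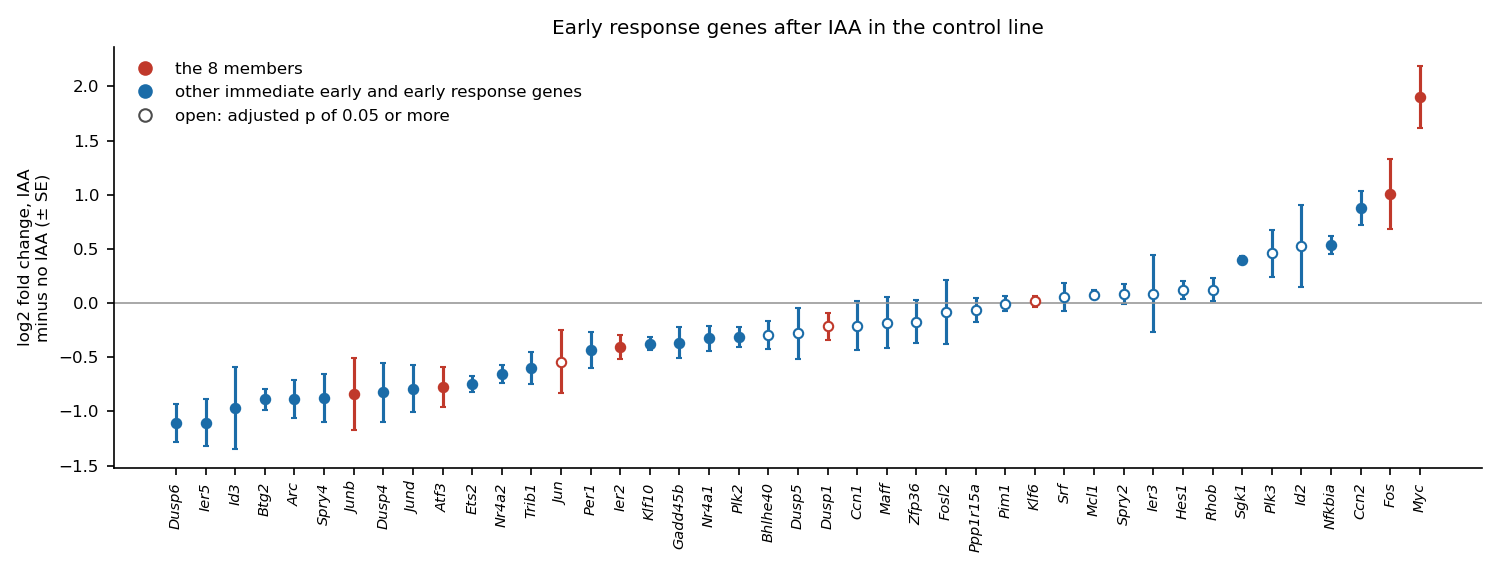
Log2 fold changes with IAA in the control line for the 8 members (red) and the 35 other early response genes tested (blue), ordered by value. Bars are ± 1 SE and filled points passed limma's adjusted p of 0.05. Of the 35 other genes, 16 fell and 3 rose, from Dusp6 at -1.10 to Ccn2 at 0.88. The members ranged from Junb at -0.84 to Myc at 1.90.

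With wild-type CTCF against the IAA control, 7 of those 35 rose and 2 fell, a called share of 25.7% where 31.6% of all tested genes were called. Btg2 rose by 0.88 (limma adjusted p = 9.6e-10), Gadd45b, a stress gene, by 0.69 (adjusted p = 1.9e-04) and Plk2, a kinase, by 0.68 (adjusted p = 2.5e-07). With median-of-ratios factors 5 rose and 4 fell, and without the second wild-type library 3 rose and 2 fell. With mutated CTCF 7 rose and 4 fell (31.4% called, against 34.3% of all tested genes), or 6 and 6 with median-of-ratios factors, Ets2 among the first (0.55, adjusted p = 8.3e-08) and Ccn2 among the second (-0.62, adjusted p = 0.0021). Mutated against wild-type CTCF gave 6 higher and 7 lower (37.1% against 34.7%), with Plk2 at -0.998 (adjusted p = 2.2e-11) and Gadd45b at -0.87 (adjusted p = 5.1e-06). The wild-type line against untreated cells gave 6 higher and 8 lower (14 of 35 called, against 43.2% of all tested genes), with a median of -0.016 beside 0.053 over all genes. Dusp6 (-1.12, adjusted p = 1.5e-06), Trib1 (-0.80, adjusted p = 2.5e-05), Nr4a2 (-0.77, adjusted p = 5.8e-10) and Jund (-0.67, adjusted p = 0.012) were lower there and Ccn2 was higher (0.65, adjusted p = 9.7e-04). The mutated line against untreated cells gave 3 higher and 15 lower (51.4% called against 37.8%), with a median of -0.20 beside 0.052 over all genes, and Dusp6 at -1.31 (adjusted p = 6.9e-08). Arc (-0.88), Trib1 (-0.68) and Plk2 (-0.63) were lower there too and Nfkbia was higher (0.51).

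Genes that act upstream of the members, such as the ternary complex factors, MAP kinases and elongation factors, were listed as 24, all tested. With IAA 6 rose and 2 fell, a called share of 33.3% against 37.7% of all tested genes, with a median of 0.010, and with libraries at the same total 6 rose and 6 fell, with a median of -0.041. Against the IAA control, 10 rose and 0 fell with wild-type CTCF (41.7% called, against 31.6% of all genes) and 8 rose and 5 fell with mutated CTCF (54.2%, against 34.3%). Against untreated cells, 15 rose and 2 fell in the wild-type line (70.8%, against 43.2%) and 9 rose and 3 fell in the mutated line (12 of 24, against 37.8%), which became 7 and 4, and 3 and 5, with libraries at the same total. Between the mutated and wild-type lines 2 were higher and 7 lower (37.5%, against 34.7%). Elk3, a ternary complex factor that binds with serum response factor, fell by 0.99 on the log2 scale (SE 0.11, limma adjusted p = 1.5e-09), was higher by 0.80 (adjusted p = 3.5e-07) with wild-type CTCF than in the IAA control, and higher by 0.28 (adjusted p = 0.0496) with mutated CTCF. Of the other AP-1 and related bZIP genes, 11 of 17 were tested, and 2 rose and 4 fell with IAA (54.5% called), Mafk (-0.81, adjusted p = 1.7e-04) and Jund among them. Of the Myc network, the partners and antagonists of Myc, 12 of 12 were tested, and 1 rose and 3 fell (33.3% called), or 5 fell at the same total. Over the other 5 comparisons the AP-1 list had between 1 and 3 genes called higher and between 0 and 4 lower. The Myc network had between 1 and 4 higher and between 0 and 2 lower. Per comparison, 3 to 6 of the 11 AP-1 genes and 3 to 5 of the 12 Myc network genes were called. Of all tested genes 31.6% to 43.2% were called in these 5 comparisons. Mycn, the paralog of Myc, fell by 0.42 (SE 0.073, adjusted p = 9.7e-06) where Myc rose, and was higher by 0.68 (adjusted p = 1.4e-09) with wild-type CTCF and by 0.51 (adjusted p = 4.4e-07) with mutated CTCF than in the IAA control, where Myc gave 0.065 and -0.16.

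Of 17 genes for factors that bind or degrade RNAs rich in A and U, 8 rose and 2 fell with IAA (58.8% called, against 37.7% of all tested genes). Their median was 0.047, and with libraries at the same total 6 rose and 3 fell, with a median of -0.0044. Against the IAA control, 5 rose and 1 fell both with wild-type and with mutated CTCF (35.3% called, against 31.6% and 34.3%). Against untreated cells, 9 rose and 0 fell in either line (52.9%, against 43.2% and 37.8%), which became 6 and 3 in the wild-type line and 4 and 1 in the mutated line with libraries at the same total. Between the mutated and wild-type lines 4 were higher and 6 lower (58.8%, against 34.7%). Of 6 heat shock genes tested, 1 rose and 0 fell with IAA (16.7% called, against 37.7%), Hspa1b (1.08, SE 0.35, limma adjusted p = 0.013). Against the IAA control, 3 rose and 1 fell with wild-type CTCF (66.7% called, against 31.6%), and 1 rose and 2 fell with mutated CTCF (3 of 6 called, against 34.3%). Against untreated cells, 3 were higher and 1 lower in the wild-type line (66.7%, against 43.2%). In the mutated line 1 was higher and 0 lower (16.7%, against 37.8%). Between the mutated and wild-type lines 1 was higher and 3 were lower (66.7% called, against 34.7%), with Hspb1 at -0.84 (adjusted p = 1.8e-09) and Hsph1 at -0.31 (adjusted p = 3.1e-05). The part of these stress genes in the members' differences between lines was not tested. In the annotated 3′ UTRs of the principal transcripts, the nonamer TTATTTATT of AU-rich elements occurred 2 times in Dusp1 and 1 time in Fos, and in none of Atf3, Ier2, Jun, Junb and Klf6. Among genes whose 3′ UTR is at least as long, 3.43% (for Dusp1) and 3.95% (for Fos) held it within a first stretch of the same length as that member's UTR. The pentamer ATTTA occurred 4 times in Dusp1, Fos and Jun each, 7 times in Klf6, 3 times in Atf3, 2 times in Junb and 0 times in Ier2. As many or more in a stretch of the same length were found in 6.41% of genes for Dusp1, 9.21% for Fos, 21.6% for Jun, 35.8% for Klf6, 33.4% for Atf3 and 19.3% for Junb. Myc had no matched 3′ UTR.

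The nearest listed genes were read because CTCF bounds the domains in which genes and their enhancers meet; they were chosen as neighbours, with the members' values known. With IAA 2 of the 13 tested rose and 5 fell, beside 19.4% and 18.4% of all tested genes. Against the IAA control 5 rose and 3 fell with wild-type CTCF (31.6% of all genes called), and 6 rose and 3 fell with mutated CTCF (34.3%). Between the mutated and wild-type lines 1 was higher and 1 lower (34.7%). Against untreated cells 2 were higher and 3 lower in the wild-type line (43.2%), and 3 higher and 3 lower in the mutated line (37.8%). The gene after Myc is the long noncoding RNA Pvt1, which begins 47.6 kb beyond it on the same strand. Pvt1 had 6361 and 6386 normalized reads in untreated libraries, 3993 and 4140 in the IAA control, 6203 and 6304 with wild-type CTCF, and 4589 and 4624 with mutated CTCF. No groups overlapped, and the wild-type line was close to untreated cells. With IAA Pvt1 fell by 0.65 on the log2 scale (SE 0.035, limma adjusted p = 9.4e-19), where Myc rose. It was higher than the IAA control by 0.62 (adjusted p = 1.4e-17) with wild-type CTCF and by 0.18 (adjusted p = 7.4e-05) with mutated CTCF, and the mutated line was below the wild-type line by 0.44 (log2 fold change -0.44). Against untreated cells the wild-type line differed by -0.027 (SE 0.035, adjusted p = 0.55). Myc passed in none of the comparisons between the 3 groups with IAA. Of the other neighbours, Jdp2, a bZIP repressor of AP-1 121.8 kb after Fos, fell by 0.34 with IAA (adjusted p = 1.5e-05). D730003I15Rik, 6.4 kb from Atf3, fell by 0.75 (adjusted p = 0.021), as Atf3 did, but with wild-type CTCF against the IAA control it rose by 0.81 (adjusted p = 0.014) where Atf3 fell. Beside Ier2, Nacc1 fell by 0.28 (adjusted p = 7.6e-05) and Cacna1a rose by 0.31 (adjusted p = 9.7e-09). Fggy, beside Jun, fell by 0.40 (adjusted p = 1.3e-09), and Gm35330, beside Klf6, rose by 1.45 (adjusted p = 1.2e-08), where Jun and Klf6 did not pass. Neighbours thus moved with their member in some pairs and against it in others.

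**Figure D5:**
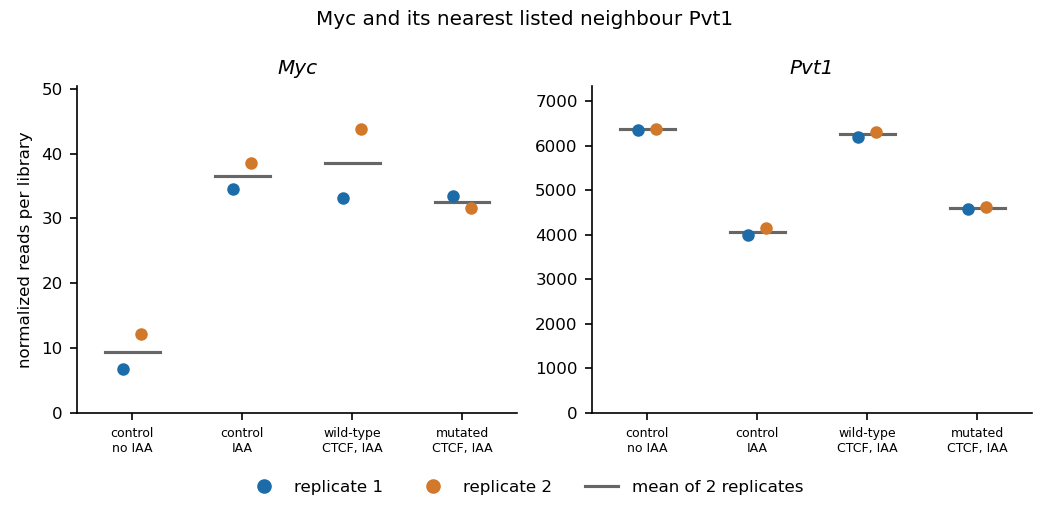
Normalized reads of Myc and of its nearest listed neighbour Pvt1 in each library, with separate vertical axes from 0; points are libraries and bars are the mean of 2. Myc is low in the untreated libraries alone (6.69 and 12.1), whereas Pvt1 is high in the untreated and wild-type libraries (6203 to 6386) and low in the IAA control (3993 and 4140).

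Among the members themselves, log2 levels over the 8 libraries went together for Atf3 and Jun (Pearson r = 0.87), Junb and Ier2 (0.81) and Dusp1 and Junb (0.80), and in opposite directions for Fos and Ier2 (-0.85) and Myc and Ier2 (-0.85). The 8 points share 4 groups, so these values describe group patterns and carry no test. Among 3103 genes with a mean of at least 50 and group means spanning at least 0.5, the patterns most like Myc were those of Pex7 (r = 0.987), Gpcpd1 (0.986) and Olfr45 (0.986). The most like Fos were Mkln1os (0.94), Adamts15 (0.94) and Lyn (0.93), and the most like Atf3 were Lpxn (0.996), Trim66 (0.97) and 1700120C14Rik (0.96). For Jun they were Zfp30 (0.99), Zfp974 (0.98) and 1810014B01Rik (0.98), and for Junb Mapre3 (0.97), Ripor1 (0.95) and St7 (0.95). With so many candidates over 8 libraries, high values arise by selection.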

How the data were processed

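Per the labels' protocols, RNA labelled with 4-thiouridine was fragmented, biotinylated, captured and made into strand-specific libraries. The submitters' processing notes name Trim Galore, STAR, featureCounts, DESeq2 and mm10, without versions or roles; the annotation release, counted feature and strand setting are not given in the sources used here. The authors deposited 1 table of normalized read signal per gene and library (16940 genes, each with at least 10 reads in at least 2 libraries); it has 0 columns from outside the 8 libraries.

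Values were tested as log2(value + 1) with limma 3.58.1 in R 4.3.3, with 1 coefficient per group over all 8 libraries, contrasts, and eBayes with a mean-variance trend. Tests were two-sided, p-values were adjusted by Benjamini-Hochberg over the 15818 genes with a mean of at least 10, within each of 6 comparisons, and the threshold was 0.05. Log2 fold changes include the pseudocount of 1, so changes of genes at low levels come out too small. With 2 libraries per group the fit had 4 residual degrees of freedom per gene. The fit was tested on simulated data. Depth and counting error were taken from the values' steps, read as whole reads. Gene positions are from GENCODE M21 (GRCm38), matched by gene ID, and promoters from RefSeq.

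The members and gene lists were chosen with earlier results of these data known. All listed members are named. Other early response genes could be named where they passed and moved by at least 0.5 on the log2 scale, at a mean of at least 50, at most 4 highest and 4 lowest per comparison; of other lists at most the 2 highest and 2 lowest that passed. Alternatives varied the pseudocount, filter, scaling, libraries in the fit, trend and replicate block, and left out each library.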

Additional observations from a re-analysis of the deposited data

Results flagged for a closer look

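Klf6 differed between the 2 lines overexpressing CTCF. Its change from the IAA control was higher with mutated than with wild-type CTCF by 0.37 on the log2 scale (SE 0.053, limma adjusted p = 5.2e-07), and both mutated libraries lay above both wild-type ones.

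Atf3 also differed between these lines, by 0.80 (SE 0.18, limma adjusted p = 6.8e-04), with both mutated libraries above both wild-type ones. Against the IAA control, Klf6 passed with mutated CTCF (0.36) and not with wild-type CTCF (-0.010). For Atf3 the wild-type line passed (-0.48) and the mutated line did not (0.31). Without the first wild-type library the Atf3 difference was 0.43 (adjusted p = 0.064). In each case the shared control cancels, so the difference is that between the mutated and wild-type lines.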

How the results depend on the processing

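Over the settings that kept all libraries, 385 member fold changes kept their direction and side of the threshold, 10 passed only under the alternative, 10 lost the call and 3 changed sign. With single libraries left out, 340 did, and 6, 25 and 13 were of those 3 kinds. The sign changes were all of uncalled values. For Klf6 they were -0.036 with IAA (same total), and -0.049 (median-of-ratios factors) and -0.077 (same total) in the wild-type line against untreated cells, where left-out libraries gave -0.0072 and -0.00018 and a range up to 0.018. With single libraries left out, the wild-type line against the IAA control ranged from -0.92 to 0.071 for Fos, from -0.13 through -0.011 to 0.26 for Myc, from -0.0074 to 0.33 for Dusp1 and from -0.25 to 0.056 for Jun. The mutated line against that control ranged from -0.16 to 0.83 for Fos, from -0.31 to 0.031 for Dusp1, and from -0.46 to 0.13 and 0.14 for Junb. Against untreated cells Dusp1 ranged from -0.15 to 0.049 in the wild-type line and Jun from -0.19 to 0.0049 in the mutated line.

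With IAA, 5 members were called; 3 were called without the mean-variance trend (Myc, Ier2 and, in addition to those 5, Jun), and 2 at a minimum mean of 50, where 4 members were tested; left-out libraries gave 2 to 5. Wild-type CTCF against the IAA control called 0 members by limma without the trend (0 at an unadjusted p under 0.05) or with only the 2 groups in the fit (1 unadjusted), and 0 to 1 with libraries left out. Mutated CTCF against untreated cells called 4 at a minimum mean of 50 and 4 to 7 with libraries left out. In the wild-type line against untreated cells, Jun passed as well with median-of-ratios factors, at the same total and without the trend. Over all genes, calls without the trend numbered 3946 in place of 5967 with IAA, 2379 in place of 4991 for the wild-type and 3228 in place of 5433 for the mutated line against the IAA control. They were 3263 in place of 5489 between those lines and 3869 in place of 5975 for the mutated line against untreated cells. The wild-type line against the IAA control called 3274 to 5079 genes with libraries left out.

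Same-numbered libraries did not deviate together (mean r 0.0037, range -0.022 to 0.028 over 6 pairs of groups). With the replicate block, 5, 1, 1, 3, 3 and 7 members and 6423, 5532, 5920, 5981, 7237 and 6397 genes were called in the 6 comparisons, in the order given in the text. Planned count tests (edgeR's quasi-likelihood test and DESeq2) were not run, because in 1 library the step between values, 0.989, lies too near 1 for the recovery of whole reads to be checked independently. Depth limits Fos, Jun, Junb and Myc most, with 8 to 41 reads per library for Myc.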
